A study of Mus musculus with 9 samples.

Results

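The comparison of the 12-month with the 2-month mouse cochlea took the 3 libraries labelled Age12 and the 3 labelled Ctrl, 6 of the 9 libraries of the series, and 31041 of the 32066 genes in its table of read counts, since genes on the X and Y chromosomes were left out. The study followed age-related sensorineural hearing loss in C57BL/6J mice, an inbred strain that loses hearing early, at approximately 2, 8 and 12 months of age. Both groups compared here were wild-type and untreated apart from anaesthesia for a hearing test (auditory brainstem response), which each age group underwent before the cochleae were frozen and total RNA was extracted. Messenger RNA was captured by its poly(A) tail and read as strand-specific paired-end libraries. Male and female mice were bred, and which sex went into which library, how many animals each library pooled and how much bone, nerve and neighbouring tissue was dissected with the cochlea were not given in the sources used here, so p-values measure only the spread between these libraries, which may be partly technical. The question the comparison addressed was which transcripts differed between the youngest and the oldest cochlea of the study.

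The cochlea is a coil of bone that holds the sensory hair cells and their supporting cells, the stria vascularis and spiral ligament, which keep the potassium-rich fluid around the hair cells, and the spiral ganglion, whose myelinated neurons carry the signal to the brain. It sits inside the temporal bone beside the air-filled middle ear, which is lined with ciliated and mucus-secreting epithelium, and close to marrow, muscle, sensory ganglia of the cranial nerves and the floor of the brain. Bulk RNA from a dissected cochlea is therefore a sum over many cell types, and fewer cells of a type cannot be told apart from less RNA per cell in any result below.

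Levels are given as CPM, the count of a gene relative to the total of its library, scaled by the trimmed mean of M values, and fold changes are 12 months over 2 months. A gene is said to have risen or fallen where its p-value from the quasi-likelihood test of edgeR, adjusted by Benjamini-Hochberg over all 18377 genes tested, was at most 0.05. For a differentially expressed gene (DEG) a 2-fold difference in either direction was required as well. With 3 libraries against 3 an exact permutation test of a single gene cannot give a p below 0.1.

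Total counts ran from 32469000 to 33045923 at 2 months and from 33190368 to 37935875 at 12 months, so depth differed little between groups. Markers of cochlear cells were present in every library. The spiral ligament protein gene Coch stood at 1411, 400.3 and 968 CPM in the 2-month libraries and at 1063, 925 and 928 CPM in the 12-month libraries. The hair cell myosin gene Myo7a stood at 12.3, 5.50 and 8.60 CPM and at 14.7, 11.5 and 12.3 CPM. Slc26a5, which encodes the motor protein of outer hair cells, was almost absent, with 0.125, 0 and 0 CPM at 2 months and 0.0284, 0 and 0 CPM at 12 months.

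Several libraries stood apart from their group. Xist, the transcript of the inactive X chromosome, had 8765, 7267 and 8254 counts in the 2-month libraries and 16, 1595 and 1686 in the 12-month libraries, while the Y-linked gene Ddx3y had 14, 4 and 3 counts at 2 months and 976, 1429 and 1637 at 12 months. Sex-linked expression therefore differed between the age groups in the same libraries as age did, and sex and age cannot be told apart in any gene below. The third 2-month library lay between the other two: of 655 genes with at least 5 CPM in 2-month library 1 or 2 and a difference of at least 4 times between them, library 3 lay between them for 655 (100%), at a median of 55.9% of the way from library 2 to library 1 (quartiles 52.5% and 59.0%). Of the 98 such genes at 12 months, library 3 lay between libraries 1 and 2 for 63 (64.3%), at a median place of 1.99%, that is, at library 2. The correlation of log2 CPM between 12-month libraries 2 and 3 was 0.991, against 0.978 for library 1 with either of them. Library 3 may thus not be a sample independent of the other two at 2 months, or of library 2 at 12 months. In either case n = 3 overstates the group, and the errors and p-values are too small. How library 3 was made was not tested. Counts of most lists are therefore also given without 2-month library 3. The filter that drops genes of low count was run again for each left-out library, so the number of members tested could differ.

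**Figure D1:**
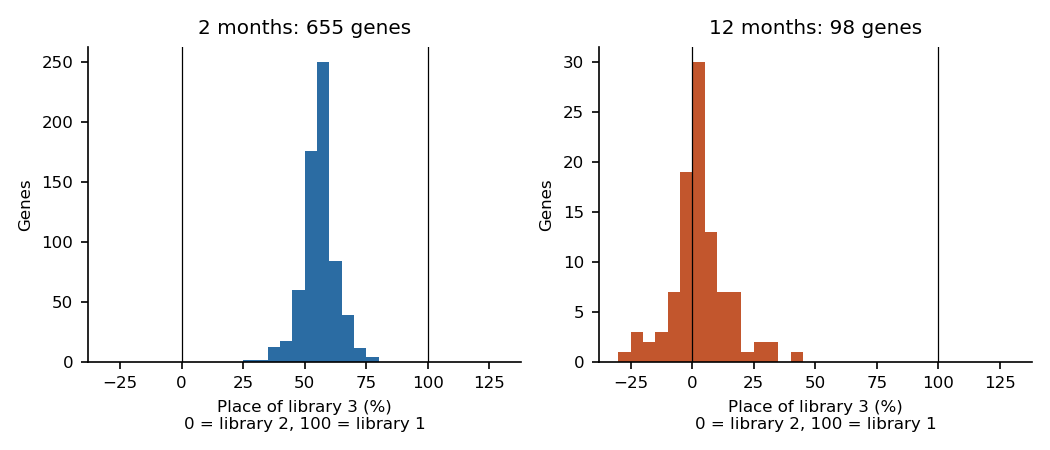
Place of library 3 between libraries 1 and 2 of its group, for genes that differ at least 4 times between libraries 1 and 2 (horizontal axis, % of the way from library 2 to library 1 in CPM, with values beyond the axis drawn in the end bins; vertical axis, number of genes). The 655 genes at 2 months pile up around a median of 55.9%, and the 98 genes at 12 months around a median of 1.99%.

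The shares of counts of several tissue lists also differed. Genes of 2 gland lists, secretory cells of the airway lining (16 members tested) and salivary-type glands (18 members tested), took up large shares of all counts. The airway list held 11.7%, 10.6% and 10.9% of counts in the 2-month libraries and 0.052%, 4.84% and 4.79% in the 12-month libraries. The salivary-type list held 3.57%, 3.01% and 3.30% at 2 months and 0.0181%, 1.10% and 1.10% at 12 months. Every 12-month library was thus below every 2-month library in both lists, and 12-month library 1 held almost none. Skeletal muscle genes held 1.42%, 8.48% and 4.66% at 2 months and 10.3%, 8.26% and 8.37% at 12 months, so that 2-month library 1 was the one poor in muscle.

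**Figure D2:**
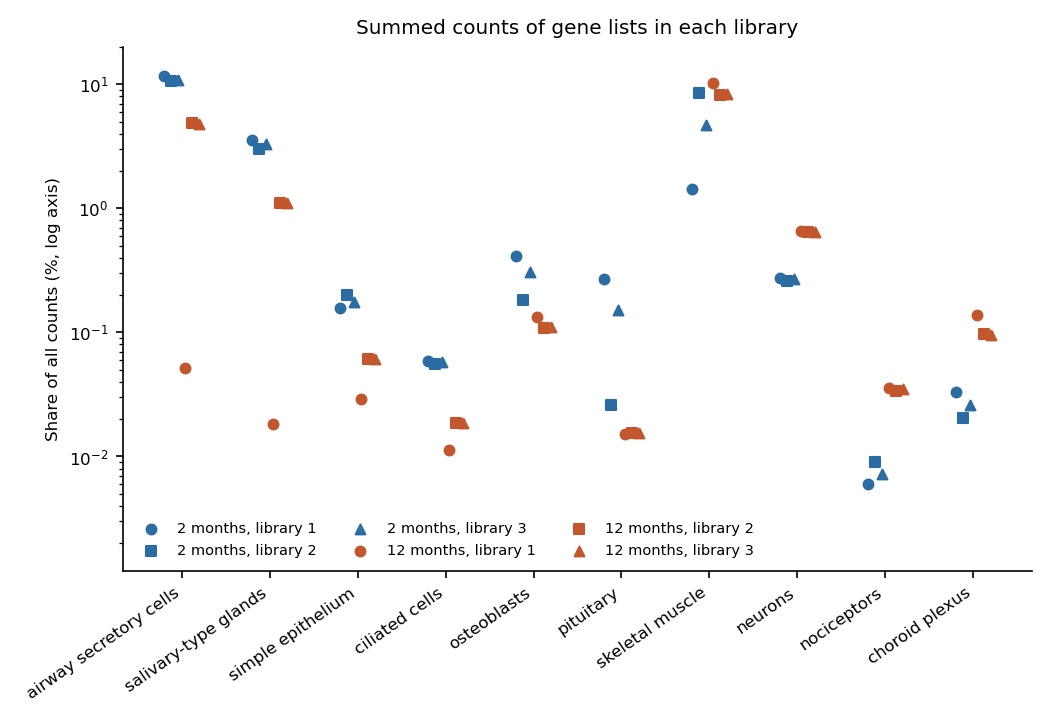
Share of all counts taken up by 10 gene lists in each library (vertical axis, % of counts on a log axis; blue, 2 months; orange, 12 months; the symbols are libraries 1 to 3). Gland, ciliated and epithelial lists are lower in all 12-month libraries, neuron, nociceptor and choroid plexus lists are higher in all of them, and 12-month library 1 has an airway share of 0.052%.

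Most DEGs on the counts were decreases. There were 2813 DEGs among the 18377 genes tested (15.3%), of which 1937 were lower at 12 months (10.5% of genes tested) and 876 were higher (4.77%), so that decreases made up 68.9% of the DEGs. Without the fold cutoff 3424 genes fell (18.6%) and 2549 rose (13.9%), and the median log2 fold change of all genes tested was 0.00. The counts depended on single libraries: 1571 genes were DEGs without 2-month library 3, 4099 without 2-month library 2, and between 1780 and 1949 when 1 of the 12-month libraries was left out. When library 3 of both groups was left out no gene passed by edgeR, with 4252 genes at an unadjusted p of at most 0.05 and all 2813 DEGs keeping their sign. With the mean log2 level of the gland genes as a covariate 2 genes were DEGs by edgeR, 4030 had an unadjusted p of at most 0.05 and 2780 of the 2813 DEGs kept their sign.

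**Figure D3:**
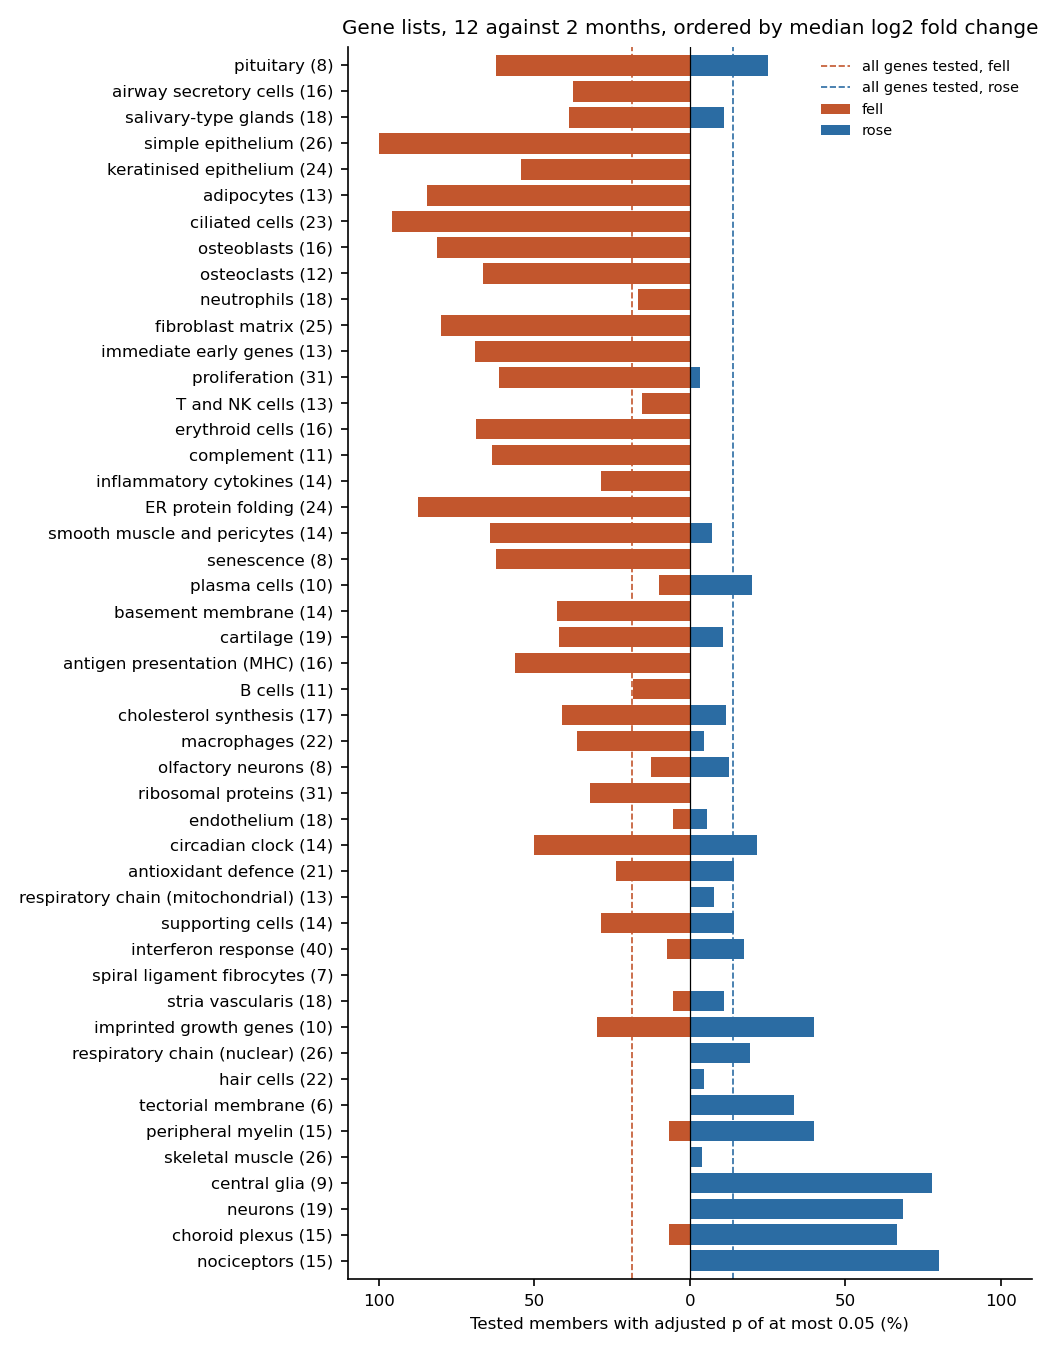
Share of the tested members of each gene list that fell (orange, to the left) and rose (blue, to the right) at 12 months (horizontal axis, % of tested members with an adjusted p of at most 0.05; number of tested members in brackets; lists of 5 or more tested members, ordered by median log2 fold change). Dashed lines mark the shares among all genes tested, 18.6% fell and 13.9% rose. Simple epithelium and ciliated cells reach furthest to the left, and nociceptors and central glia furthest to the right.

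The epithelial genes fell together. All 26 tested members of the simple epithelium list fell, 24 of them as DEGs, with a median log2 fold change of -2.09 and no overlap between the groups for any of the 26, where 18.6% of all genes tested fell and 27.2% were lower without overlap (53.6% did not overlap in one direction or the other). Of these 26, 19 fell without 2-month library 3. Epcam, an adhesion protein of epithelial cells (GRCm39 chr17:87943407-87958557, plus strand), stood at 116, 162 and 147 CPM in the 2-month libraries and at 21.1, 43.6 and 42.8 CPM in the 12-month libraries (log2 fold change -1.98, SE 0.3, adjusted p = 0.00594). Krt8, a keratin of simple epithelia, stood at 117, 144 and 127 CPM and at 10.1, 44.9 and 44.5 CPM (log2 fold change -1.96, SE 0.528, adjusted p = 0.0323). In both genes 12-month library 1 was the lowest, as it was in gland content. The genes of largest fall were Esrp2, a splicing regulator of epithelial cells (log2 fold change -3.36), Elf3, an epithelial transcription factor (log2 fold change -3.31), and Krt7 (log2 fold change -3.06). Spint2, a protease inhibitor (log2 fold change -1.42), and Cdh1, E-cadherin (log2 fold change -0.95), were the most abundant with the keratin gene Krt18 (log2 fold change -1.78). With the gland covariate the median of the list was -0.91 and no member passed by edgeR, with 17 at an unadjusted p of at most 0.05, and with all 9 libraries of the series in 1 fit 15 members fell.

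In keratinised, stratified epithelium 13 of 24 tested members fell (median -2.05), and 5 fell without 2-month library 3, 6 without 12-month library 2 and 6 without 12-month library 3. Krt4, a keratin of internal stratified epithelia, stood at 12.5, 526 and 239 CPM at 2 months and at 2.19, 3.45 and 4.52 CPM at 12 months (log2 fold change -6.26, SE 1.32, adjusted p = 0.0158). The 2-month libraries were uneven, with library 1 far below the other two. Krt13, the partner of Krt4, was as uneven, with 10.5, 869 and 395 CPM against 2.39, 12.2 and 10.2 CPM, and its groups overlapped (log2 fold change -5.68, SE 1.54, adjusted p = 0.0333). Trp63, the transcription factor of basal epithelial cells, was more even, with 46.9, 28.3 and 38.4 CPM against 4.69, 10.6 and 10.1 CPM (log2 fold change -2.16, SE 0.347, adjusted p = 0.00696). Krt5 (log2 fold change -2.11), Krt15 (log2 fold change -2.24), the cornified envelope gene Sprr1a (log2 fold change -3.55) and Ppl, periplakin (log2 fold change -2.10), also fell. Krt14, the partner of Krt5 in basal cells, stood at 504, 156 and 339 CPM against 12.4, 87.2 and 88.4 CPM and did not pass (log2 fold change -2.41, SE 0.783, adjusted p = 0.0576). With the gland covariate the median of this list was -0.26 and none passed by edgeR, with 5 lower and 3 higher at an unadjusted p of at most 0.05.

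The secretory genes themselves were among the largest falls and also the least even. Of 18 tested members of the salivary-type list 7 fell and 2 rose (median -2.57), and of 16 airway secretory members 6 fell (median -2.81). These counts moved with the libraries: 3 salivary-type members fell without 2-month library 3, 2 without 12-month library 2 and 1 without 12-month library 3. In the airway list 13 of the 18 members tested without 12-month library 1 fell. The airway number was 3 without 2-month library 3, 2 without 12-month library 2 and 3 without 12-month library 3. Bpifb1, a secreted lipid-binding protein of airway and middle ear mucosa and the most abundant member, stood at 108344, 101530.0 and 100934 CPM at 2 months and at 248, 45277 and 44543 CPM at 12 months. It was lower in every 12-month library, with 12-month library 1 far below the other two, and did not pass (log2 fold change -1.79, SE 1.44, adjusted p = 0.366). Lower in every 12-month library and likewise short of the threshold were Dmbt1, a mucosal scavenger protein (log2 fold change -2.26, adjusted p = 0.237), Ltf, lactoferrin (log2 fold change -2.37, adjusted p = 0.156), the mucin gene Muc5b (log2 fold change -3.49, adjusted p = 0.0976) and Bpifa1 (log2 fold change -2.54, adjusted p = 0.056). Of 4 tested glandular kallikrein genes 2 fell (median -1.28), with 4 falling without 2-month library 1 and 1 without 2-month library 3. Lyz1 (log2 fold change -2.08, adjusted p = 0.269) and Lyz2 (log2 fold change -1.92, adjusted p = 0.217), lysozyme genes so alike that reads may be split between them, did not pass either.

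Of the secretory genes that fell, the salivary mucin gene Muc19 (GRCm39 chr15:91722468-91832447, plus strand) stood at 10.3, 846 and 394 CPM against 0.767, 3.75 and 3.00 CPM (log2 fold change -7.38, SE 1.65, adjusted p = 0.0186). Dcpp2, a member of the demilune cell and parotid protein genes, stood at 1.22, 232 and 98.4 CPM against 0.0853, 0.207 and 0.0784 CPM (log2 fold change -9.79, SE 2.09, adjusted p = 0.0162). In both genes 2-month library 1 was far below libraries 2 and 3, though above every 12-month library, so that the fold change is mainly that of 2 of the 3 young libraries. Its near-identical neighbours Dcpp1 (log2 fold change -9.25) and Dcpp3 (log2 fold change -7.25) are so alike that reads may be assigned among them with error, and their separate values are uncertain. Smgc, a submandibular gland protein gene (log2 fold change -8.08), Bpifb2 (log2 fold change -9.26), Azgp1 (log2 fold change -3.01), the gel-forming mucin gene Muc5ac (log2 fold change -6.11), the membrane mucin gene Muc4 (log2 fold change -4.32), Adh7 (log2 fold change -3.85), Cyp2f2, an oxidase of airway club cells (log2 fold change -3.12), the antimicrobial lectin gene Reg3g (log2 fold change -3.55) and Spdef, a transcription factor of goblet cells (log2 fold change -3.15), fell as well. Amy1, amylase (log2 fold change 0.65), and Bpifa2, parotid secretory protein (log2 fold change 1.43), rose, and the call of Bpifa2 was lost without 2-month library 3 or 12-month library 2 or 3. Of the genes of largest fall that are in no list, Psca (log2 fold change -7.18), Clca3b (log2 fold change -6.41), Serpina3b (log2 fold change -6.20) and 2300002M23Rik (log2 fold change -5.91) showed a wide 2-month spread too. Across the 2-month libraries Serpina3b was highest in library 1 at 10.6 CPM, and the other three were highest in library 2.

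Genes of motile cilia fell nearly without exception. Of 23 tested members of the ciliated cell list 22 fell, 20 of them as DEGs (median -1.93, with 22 lower without overlap), against 18.6% and 27.2% of all genes tested, and 19 fell without 2-month library 3. Foxj1, the transcription factor that switches on motile ciliogenesis (GRCm39 chr11:116221530-116226225, minus strand), stood at 66.9, 68.5 and 63.9 CPM at 2 months and at 13.3, 21.6 and 22.2 CPM at 12 months (log2 fold change -1.80, SE 0.202, adjusted p = 0.00302). Here the 2-month libraries were even, and 12-month library 1 was again the lowest. Dnah5, a heavy chain of the outer dynein arm, stood at 32.8, 29.7 and 32.5 CPM against 2.39, 7.61 and 5.25 CPM (log2 fold change -2.64, SE 0.388, adjusted p = 0.00558). Ccdc153, a ciliary protein gene, stood at 76.7, 78.3 and 78.7 CPM against 3.41, 15.1 and 14.3 CPM (log2 fold change -2.83, SE 0.52, adjusted p = 0.0102). Sec14l3 (log2 fold change -3.14), Ak7, an adenylate kinase of cilia (log2 fold change -2.69), and Dynlrb2, a dynein light chain (log2 fold change -2.30), fell likewise. The median was -1.19 with the gland covariate, and none passed by edgeR, with 19 at an unadjusted p of at most 0.05. In the 250 bases upstream of the start site, GTTGCC, a part of the X-box bound by RFX factors, was found on either strand in 4 of the 23 genes (17.4%) and in 9.85% of the 15402 tested protein-coding genes.

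Genes of protein folding in the endoplasmic reticulum (ER) fell, most of them by less than 2-fold. Of 24 tested members 21 fell, 7 as DEGs (median -0.75), and 12 fell without 2-month library 3, 13 without 12-month library 2 and 14 without 12-month library 3. Hspa5, the main ER chaperone of the HSP70 family, stood at 593, 567 and 607 CPM at 2 months and at 412, 377 and 386 CPM at 12 months (log2 fold change -0.59, SE 0.106, adjusted p = 0.00966). Calr, the calcium-binding chaperone calreticulin, stood at 655, 655 and 637 CPM against 399.8, 411 and 409 CPM (log2 fold change -0.68, SE 0.102, adjusted p = 0.00592). Xbp1, a transcription factor of the unfolded protein response, stood at 407, 367 and 402 CPM against 119, 159 and 153 CPM (log2 fold change -1.45, SE 0.142, adjusted p = 0.0024). Libraries of one group differed little in these 3 genes and the groups did not overlap. Creb3l1 (log2 fold change -2.48), Derl3, a component of ER-associated degradation (log2 fold change -1.95), Edem1, which marks misfolded glycoproteins for it (log2 fold change -1.39), Creld2 (log2 fold change -1.05), the disulfide isomerase gene Pdia3 (log2 fold change -0.95) and Hsp90b1 (log2 fold change -0.46) fell, whereas Ddit3, a gene of the stress-induced death pathway (log2 fold change 0.24, adjusted p = 0.0944), and Hyou1 (log2 fold change -0.30, adjusted p = 0.187) did not pass. The gland shares were lower in the same libraries. With the gland covariate the median of the ER list was -0.63 and none passed by edgeR, with 13 at an unadjusted p of at most 0.05.

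Many ER chaperone genes carry the ER stress response element, CCAAT and CCACG with 9 bases between them. Within the 250 bases before the start site of the canonical transcript (GENCODE M39 on GRCm39), this element was found on either strand in 9 of the 24 ER genes (37.5%), 8 of which fell, and in 16 of the 15402 tested protein-coding genes (0.104%). The windows of 4 members with a match are shown because these genes fell together. The spans are chr2:34661854-34662103 (plus strand) for Hspa5, chr8:85573668-85573917 (minus strand) for Calr, chr15:88703563-88703812 (plus strand) for Creld2 and chr10:75728988-75729237 (plus strand) for Derl3, and capitals mark the element or its reverse complement.
Hspa5: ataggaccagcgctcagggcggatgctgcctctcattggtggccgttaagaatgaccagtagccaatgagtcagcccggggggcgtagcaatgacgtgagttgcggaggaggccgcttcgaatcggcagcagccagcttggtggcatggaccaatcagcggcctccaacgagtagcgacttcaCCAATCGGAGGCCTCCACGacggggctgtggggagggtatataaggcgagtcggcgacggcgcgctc
Calr: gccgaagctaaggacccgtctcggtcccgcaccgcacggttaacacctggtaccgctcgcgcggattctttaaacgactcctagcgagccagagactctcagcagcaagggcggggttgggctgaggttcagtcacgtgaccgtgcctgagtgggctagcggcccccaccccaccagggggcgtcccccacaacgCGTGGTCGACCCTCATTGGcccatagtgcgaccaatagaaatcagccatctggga
Creld2: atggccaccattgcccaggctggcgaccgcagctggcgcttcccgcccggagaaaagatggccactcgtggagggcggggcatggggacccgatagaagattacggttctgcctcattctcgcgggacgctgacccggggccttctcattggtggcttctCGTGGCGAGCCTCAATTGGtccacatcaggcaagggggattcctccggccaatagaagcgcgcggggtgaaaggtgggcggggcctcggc
Derl3: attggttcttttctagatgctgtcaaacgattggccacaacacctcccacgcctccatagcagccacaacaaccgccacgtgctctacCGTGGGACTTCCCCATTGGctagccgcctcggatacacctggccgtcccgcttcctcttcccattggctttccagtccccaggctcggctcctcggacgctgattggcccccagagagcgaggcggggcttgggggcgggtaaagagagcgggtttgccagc
The element began 67 bases before the start in Hspa5, 55 in Calr, 90 in Creld2 and 162 in Derl3, and a match is a description of these letters only.

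Most genes of bone and many of connective tissue were lower at 12 months. Of the 16 tested osteoblast genes 13 fell, all as DEGs (median -1.69), and 11 fell without 2-month library 3. Col1a1, a chain of type I collagen and the main protein of bone matrix (GRCm39 chr11:94827050-94843868, plus strand), stood at 1233, 669 and 954 CPM at 2 months and at 227, 188 and 192 CPM at 12 months (log2 fold change -2.23, SE 0.245, adjusted p = 0.00291). Bglap, osteocalcin, stood at 75.2, 47.5 and 58.3 CPM against 12.6, 10.3 and 10.8 CPM (log2 fold change -2.43, SE 0.191, adjusted p = 0.00182), and its near-identical copy Bglap2 gave a log2 fold change of -2.45. Runx2, the transcription factor of the osteoblast lineage, stood at 22.7, 14.2 and 20.2 CPM against 4.52, 4.57 and 4.13 CPM (log2 fold change -2.11, SE 0.194, adjusted p = 0.00224). All 12-month libraries were near one another in these genes, while 2-month library 2 was the lowest of its group. Col1a2 (log2 fold change -1.82) and Sost, the osteocyte product sclerostin (log2 fold change -2.32), fell too.

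Of 12 tested osteoclast genes 8 fell, 7 as DEGs (median -1.52), with 6 genes falling without 2-month library 3. Acp5, the tartrate-resistant acid phosphatase of osteoclasts, stood at 298, 169 and 236 CPM against 69.7, 52.1 and 58.3 CPM (log2 fold change -1.97, SE 0.23, adjusted p = 0.00322). The bone-resorbing proteases Ctsk (log2 fold change -1.84) and Mmp9 (log2 fold change -1.86) and the calcitonin receptor gene Calcr (log2 fold change -3.28) fell. Genes of bone formation and of bone resorption thus moved the same way.

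Cartilage was mixed, with 8 of 19 tested members lower and 2 higher (median -0.55), and 5 lower without 2-month library 3, without 12-month library 2 and without 12-month library 3, and 13 without 2-month library 2. Col10a1, the collagen of hypertrophic cartilage, stood at 22.4, 12.2 and 21.8 CPM against 0.256, 1.92 and 1.54 CPM (log2 fold change -3.92, SE 0.637, adjusted p = 0.00725). Snorc (log2 fold change -3.04), Chad (log2 fold change -1.75) and the proteoglycan gene Acan (log2 fold change -1.45) fell. Col9a3 (log2 fold change 1.12) and Prg4, the lubricant of joint surfaces (log2 fold change 0.73), rose, the latter not without 2-month library 3 or any 1 of the 12-month libraries.

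Fibroblast matrix genes fell in 20 of 25 tested members, 15 as DEGs (median -1.30), and 14 fell without 2-month library 3, 13 without 12-month library 2 and 13 without 12-month library 3. Col3a1, a fibrillar collagen of soft tissue, stood at 554, 156 and 387 CPM at 2 months and at 31.9, 30.3 and 26.6 CPM at 12 months (log2 fold change -3.63, SE 0.464, adjusted p = 0.00396). Postn, a matricellular protein of growing connective tissue, stood at 179.9, 59.9 and 135 CPM against 10.7, 11.4 and 11.7 CPM (log2 fold change -3.47, SE 0.402, adjusted p = 0.0032). The 2 most abundant members were closer between ages, with Sparc at a log2 fold change of -0.48 (adjusted p = 0.158) and Dcn, decorin, at a log2 fold change of -0.67 (adjusted p = 0.129), and neither passed. In the basement membrane 6 of 14 tested members fell (median -0.58), among them the collagen gene Col4a1 (log2 fold change -1.38) and the perlecan gene Hspg2 (log2 fold change -0.77), with 2 falling without 2-month library 3 or without 12-month library 1 or 3, 1 without 12-month library 2 and 10 without 2-month library 2.

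Most genes of the fat, smooth muscle and erythroid lists fell as well. Adipocyte genes fell in 11 of 13 tested members (median -1.98), but 4 fell without 2-month library 3, 3 without 12-month library 1 and 2 without 12-month library 2 or 3. Fabp4, the fatty acid carrier of fat cells, stood at 1216, 261 and 796 CPM at 2 months and at 213, 185 and 209 CPM at 12 months (log2 fold change -1.90, SE 0.513, adjusted p = 0.0327). Adipoq, adiponectin, overlapped between groups, with 122, 19.2 and 73.4 CPM against 20.5, 14.4 and 15.7 CPM (log2 fold change -2.09, SE 0.612, adjusted p = 0.0425). In both genes 2-month library 2 was close to the 12-month libraries. Plin1 (log2 fold change -2.50), Cidec (log2 fold change -2.25) and Pparg, the master regulator of fat cells (log2 fold change -2.18), fell. With 1 library left out the largest adjusted p by edgeR of Fabp4, Adipoq, Plin1, Cidec and Pparg lay between 0.0850 and 0.134, so each call was lost.

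Smooth muscle and pericyte genes fell in 9 of 14 tested members and rose in 1 (median -0.70), with 4 falling without 2-month library 3, 4 without 12-month library 2 and 5 without 12-month library 3. Acta2, smooth muscle actin, stood at 865, 464 and 671 CPM against 88.7, 200.1 and 195 CPM (log2 fold change -2.05, SE 0.379, adjusted p = 0.0105), and Myh11 (log2 fold change -2.04) and Cnn1 (log2 fold change -2.57) of the contractile apparatus fell likewise. The pericyte gene Higd1b was the one that rose (log2 fold change 1.07), a call that was lost without 2-month library 1 or 3 or 12-month library 2 or 3. The endothelium list held 1 member that rose and 1 that fell among 18 tested (5.56% each, median -0.30), below the 13.9% and 18.6% of all genes tested. These counts were the same without 2-month library 3, and 9 fell without 2-month library 2. Cldn5, a tight-junction protein of vessels of the nervous system, stood at 30.0, 24.1 and 25.9 CPM against 56.6, 84.4 and 87.0 CPM and rose (log2 fold change 1.51, SE 0.187, adjusted p = 0.0037). Plvap, found in fenestrated vessels, fell (log2 fold change -0.82).

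In erythroid cells 11 of 16 tested members fell (median -0.97), with 3 falling without 2-month library 3 or 12-month library 3, 4 without 12-month library 1 and 5 without 12-month library 2. Hbb-bs, a beta globin, stood at 598, 484 and 515 CPM against 281, 307 and 307 CPM (log2 fold change -0.83, SE 0.124, adjusted p = 0.00577), and Hba-a1, an alpha globin with a near-identical copy, gave a log2 fold change of -0.75. Hemgn, expressed in red cell precursors, fell too (log2 fold change -1.85).

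The neutrophil list had 18 tested members, of which 3 fell (16.7%, below the 18.6% of all genes tested), and all 18 had a negative log2 fold change (median -1.38). The list held 0.0097%, 0.0533% and 0.0293% of counts at 2 months and 0.014%, 0.0134% and 0.014% at 12 months, so 2-month library 1 lay below the 12-month libraries. Without 2-month library 1, 15 members fell, without any 1 of the 12-month libraries 1 did, and without 2-month library 3 none did by edgeR, with 5 at an unadjusted p of at most 0.05. With DESeq2 on all 6 libraries 7 fell, and with the muscle covariate 17 did (median -1.97). Cd177, a neutrophil surface protein, stood at 8.37, 149 and 66.7 CPM against 2.19, 4.84 and 4.78 CPM (log2 fold change -4.24, SE 1.01, adjusted p = 0.0225), and the granule protease gene Elane at 2.09, 13.1 and 7.52 CPM against 1.42, 1.77 and 1.59 CPM (log2 fold change -2.25, SE 0.622, adjusted p = 0.0356).

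Of the proliferation genes 19 of 31 tested fell, 12 as DEGs, and 1 rose (median -1.05), and between 11 and 13 fell without 2-month library 3 or any 1 of the 12-month libraries. Mki67, a marker of dividing cells (GRCm39 chr7:135291513-135318299, minus strand), stood at 15.9, 16.9 and 15.4 CPM at 2 months and at 5.77, 5.81 and 5.41 CPM at 12 months (log2 fold change -1.503, SE 0.106, adjusted p = 0.00165). The libraries of each age were close to one another and far from the other age. Top2a, a topoisomerase of dividing cells (log2 fold change -2.06), and Uhrf1, which maintains DNA methylation at replication (log2 fold change -1.97), fell. The spindle gene Tpx2 was the one that rose (log2 fold change 0.75), a call that was lost without 2-month library 3 or any 1 of the 12-month libraries.

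The senescence list fell in 5 of 8 tested members (median -0.69), with 4 falling without 2-month library 3. Cdkn1a, the cell cycle inhibitor p21, stood at 124, 112 and 117 CPM against 74.0, 84.1 and 85.0 CPM (log2 fold change -0.54, SE 0.0944, adjusted p = 0.00898). The protease gene Mmp3 (log2 fold change -1.65) and Glb1, the lysosomal galactosidase (log2 fold change -0.82), fell. Among imprinted growth genes 4 of 10 rose and 3 fell (median 0.11). Dlk1, expressed in immature cells, fell (log2 fold change -3.83), while Igf2 (log2 fold change 0.81) and Ndn (log2 fold change 0.89) rose. Without 2-month library 3 these counts were 1 and 1, and without any 1 of the 12-month libraries 2 rose and 1 or 2 fell.

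The immune lists differed in how many of their genes fell or rose, where 18.6% of all genes tested fell and 13.9% rose. Antigen presentation genes of the major histocompatibility complex (MHC) fell in 9 of 16 tested members (median -0.54), and 4 fell without 2-month library 3 or without any 1 of the 12-month libraries. H2-Ab1, a class II chain of antigen-presenting cells, stood at 105, 76.7 and 90.0 CPM at 2 months and at 31.8, 33.3 and 33.1 CPM at 12 months (log2 fold change -1.47, SE 0.127, adjusted p = 0.0021). H2-Aa (log2 fold change -1.27), H2-Eb1 (log2 fold change -1.20), the class II activator gene Ciita (log2 fold change -1.56) and the class I gene H2-K1 (log2 fold change -0.95) fell too. The call of Ciita was lost with 1 library left out (largest adjusted p 0.107 by edgeR).

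Complement genes fell in 7 of 11 tested members (median -0.95), with 3 falling without 2-month library 3, without 12-month library 2 and without 12-month library 3, and 4 without 12-month library 1. C3, the central component, stood at 105, 70.5 and 85.6 CPM against 34.2, 30.2 and 34.6 CPM (log2 fold change -1.40, SE 0.159, adjusted p = 0.00309), and factor B, Cfb, fell (log2 fold change -2.15). Inflammatory cytokine genes fell in 4 of 14 (median -0.77), with 1 falling without 2-month library 3, 1 without 12-month library 1 or 2, 2 without 12-month library 3 and 6 without 2-month library 2. The interleukin gene Il1b (log2 fold change -1.29) and its natural antagonist Il1rn (log2 fold change -1.61) both fell.

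The interferon response list was split, with 7 of 40 tested members higher and 3 lower (median 0.02), and 5 higher and 1 lower without 2-month library 3, so the direction of the list as a whole was mixed. Isg15, a ubiquitin-like protein made on interferon signalling (GRCm39 chr4:156283883-156285303, minus strand), stood at 6.18, 4.57 and 5.16 CPM at 2 months and at 12.1, 12.2 and 11.7 CPM at 12 months (log2 fold change 1.18, SE 0.146, adjusted p = 0.00373). Ifit3 (log2 fold change 1.27), its paralog Ifit3b (log2 fold change 1.43) and the chemokine gene Cxcl10 (log2 fold change 1.19) rose, whereas Oasl1 fell (log2 fold change -1.35). The number that fell was 11 without 2-month library 2 and 1 without any 1 of the 12-month libraries. With the muscle covariate 15 rose (median 0.40), and with all 9 libraries in 1 fit 0 rose by edgeR, with 1 at an unadjusted p of at most 0.05. The median turned to -0.28 with the gland covariate, and 0 passed by edgeR, with 4 higher and 1 lower at an unadjusted p of at most 0.05.

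Macrophage genes fell in 8 of 22 tested members and rose in 1 (median -0.44), with 2 falling without 2-month library 3, 5 without 12-month library 1, 1 without 12-month library 2 or 3 and 14 without 2-month library 2. Laptm5 (log2 fold change -0.88), Folr2, of resident macrophages (log2 fold change -1.15), and Mertk, a receptor for the uptake of dying cells (log2 fold change -1.01), fell. Cx3cr1, the fractalkine receptor of microglia and tissue macrophages, rose, from 9.65, 8.05 and 8.24 CPM to 14.0, 17.7 and 16.2 CPM (log2 fold change 0.88, SE 0.137, adjusted p = 0.00646). Of 11 B cell genes 2 fell (18.2%, near the 18.6% of all genes tested), Vpreb3 (log2 fold change -1.93) and Blnk (log2 fold change -1.76), with 2 falling without 2-month library 3. Of 10 plasma cell genes 2 rose and 1 fell, with 3 falling without 2-month library 1 and the fall lost without any 1 of the other libraries, and the immunoglobulin heavy chain genes Ighg2c, at 0.0312, 0 and 0.196 CPM against 1.48, 1.42 and 1.31 CPM (log2 fold change 4.13, SE 0.716, adjusted p = 0.00862), and Ighm (log2 fold change 0.47), whose call was lost without 2-month library 3, were the ones that rose. Of 13 genes of T and natural killer cells 2 fell (15.4%, below the share of all genes tested), with 1 falling without 2-month library 3 and none by edgeR without any 1 of the 12-month libraries, where 3, 5 and 5 had an unadjusted p of at most 0.05, and 3 falling by DESeq2.

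Hormone genes of the pituitary were far lower at 12 months and uneven at 2 months. Of 8 tested members 5 fell and 2 rose (median -3.70). Prl, prolactin (GRCm39 chr13:27241553-27249188, plus strand), stood at 1575, 115 and 919.9 CPM in the 2-month libraries and at 3.38, 4.57 and 3.66 CPM in the 12-month libraries (log2 fold change -7.81, SE 1.06, adjusted p = 0.00461). Gh, growth hormone, stood at 1024, 105 and 581 CPM against 7.59, 11.98 and 11.5 CPM (log2 fold change -5.78, SE 0.874, adjusted p = 0.00594). Both were highest in 2-month library 1 and lowest in library 2, which still exceeded every 12-month library. Pomc (log2 fold change -5.03), Cga (log2 fold change -5.78) and Lhb (log2 fold change -2.37) fell, while Pcsk1, a prohormone convertase (log2 fold change 1.84), and Chga, chromogranin A (log2 fold change 0.82), both also expressed in neurons, rose. Without 2-month library 2, 8 members fell and 2 rose, since more members than in the main fit were tested there. Without 2-month library 3, 5 fell and 1 rose, and without any 1 of the 12-month libraries 4 fell and 1 rose.

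Immediate early genes, which cells transcribe within minutes of a stimulus, fell in 9 of 13 tested members, 6 as DEGs, (median -1.18), with 8 falling without 2-month library 3. Btg2, an antiproliferative early gene, stood at 277, 302 and 293 CPM at 2 months and at 67.5, 82.2 and 80.3 CPM at 12 months (log2 fold change -1.92, SE 0.114, adjusted p = 0.0015). Fos, a subunit of the AP-1 transcription factor, stood at 81.1, 53.0 and 76.6 CPM against 26.9, 26.3 and 25.4 CPM (log2 fold change -1.42, SE 0.168, adjusted p = 0.00326). The groups did not overlap in either gene, and 2-month library 2 was the lowest of its age in Fos. Its partner Jun (log2 fold change -0.95), Ier2 (log2 fold change -1.55), the phosphatase gene Dusp1 (log2 fold change -1.18), Zfp36, which destabilises cytokine messages (log2 fold change -1.68), and the nuclear receptor gene Nr4a1 (log2 fold change -0.63) fell.

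The cyclic AMP response element TGACGTCA was found on either strand in the 250 bases upstream of 3 of the 13 early genes (23.1%), all 3 of which fell, and in 1.91% of the 15402 tested protein-coding genes. The windows of 2 of the 3 are shown as examples, chr8:85389484-85389733 (minus strand) for Ier2 and chr1:134006859-134007108 (minus strand) for Btg2, with the element in capitals.
Ier2: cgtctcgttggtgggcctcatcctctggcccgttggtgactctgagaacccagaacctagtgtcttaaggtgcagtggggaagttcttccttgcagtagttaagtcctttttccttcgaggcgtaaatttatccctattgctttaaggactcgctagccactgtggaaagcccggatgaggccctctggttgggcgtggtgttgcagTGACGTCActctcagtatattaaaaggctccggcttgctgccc
Btg2: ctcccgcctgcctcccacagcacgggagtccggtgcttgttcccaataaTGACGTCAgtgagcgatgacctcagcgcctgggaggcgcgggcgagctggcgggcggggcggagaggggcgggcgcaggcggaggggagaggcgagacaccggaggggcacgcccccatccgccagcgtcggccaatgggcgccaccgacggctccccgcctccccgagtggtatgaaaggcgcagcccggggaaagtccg
The element began 43 bases before the start in Ier2 and 201 bases before it in Btg2.

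The circadian clock genes moved in both directions. Of 14 tested members 7 fell and 3 rose (median -0.29), with 6 and 2 without 2-month library 3 and 1 rising without 12-month library 2. Bmal1, the activator at the core of the loop (GRCm39 chr7:112806152-112914735, plus strand), stood at 3.75, 6.16 and 4.25 CPM at 2 months and at 15.9, 14.1 and 14.4 CPM at 12 months (log2 fold change 1.65, SE 0.205, adjusted p = 0.00372), and its partner Clock rose (log2 fold change 0.56). Dbp, an output gene switched on by that pair, stood at 196, 188 and 189 CPM against 56.9, 69.8 and 67.4 CPM (log2 fold change -1.56, SE 0.107, adjusted p = 0.00165). The repressors Per1 (log2 fold change -0.54), Per2 (log2 fold change -1.13), Per3 (log2 fold change -0.98), Nr1d1 (log2 fold change -0.86), Nr1d2 (log2 fold change -0.41) and Ciart (log2 fold change -0.87) fell, while the repressor gene Bhlhe41 rose (log2 fold change 0.44) and the cryptochrome genes Cry1 (log2 fold change 0.27, adjusted p = 0.312) and Cry2 (log2 fold change 0.34, adjusted p = 0.140) did not pass. The time of day at which tissue was taken was not given in the sources used here, so clock phase and age cannot be told apart.

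The E-box CACGTG, which the Bmal1 and Clock proteins bind, was found in the 250 bases upstream of 4 of the 14 clock genes (28.6%) and in 7.29% of the 15402 tested protein-coding genes. Ciart held 3 copies, at 100, 42 and 28 bases before the start, and its window, chr3:95789557-95789806 (minus strand), is shown with the copies in capitals.
Ciart: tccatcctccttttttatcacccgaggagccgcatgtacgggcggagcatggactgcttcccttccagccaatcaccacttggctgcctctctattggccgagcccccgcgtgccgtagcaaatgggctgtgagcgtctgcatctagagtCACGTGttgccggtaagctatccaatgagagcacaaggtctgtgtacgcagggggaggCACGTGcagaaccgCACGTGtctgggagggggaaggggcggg

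Housekeeping groups moved by small amounts, and 18.6% of all genes tested fell and 13.9% rose. Of the 31 ribosomal protein genes tested 25 were lower without overlap, against 27.2% of all genes tested. Of the 26 nuclear respiratory chain genes 14 were higher without overlap, against 26.3%. Ribosomal protein genes fell in 10 of 31 tested members, none as a DEG, and all 31 had a negative log2 fold change (median -0.34), but 1 fell without 2-month library 3, and Rps6 gave a log2 fold change of -0.70. Without 12-month library 1, 2 or 3 the number was 4, 2 or 1, and without 2-month library 2 it was 16. Nuclear genes of the respiratory chain rose in 5 of 26 (median 0.25), among them Cox7a2 (log2 fold change 0.54), with 1 rising without 2-month library 3 or any 1 of the 12-month libraries and 15 without 2-month library 2. Of 13 respiratory chain genes of the mitochondrial genome 1 rose, mt-Nd3 (log2 fold change 0.52, a call lost without 12-month library 2 or 3), and the median was -0.19.

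Cholesterol synthesis genes fell in 7 of 17 and rose in 2 (median -0.46), with 2 falling without 2-month library 3 or any 1 of the 12-month libraries and 13 without 2-month library 2. Msmo1, an enzyme of the pathway, fell (log2 fold change -1.78). Of 21 antioxidant genes 5 fell (23.8%) and 3 rose (14.3%), near the 18.6% and 13.9% of all genes tested (median -0.20). Among them were the glutathione peroxidase genes Gpx1 (log2 fold change -0.81) and Gpx3 (log2 fold change -0.73), which fell, and Srxn1, which rose (log2 fold change 0.63). Without 2-month library 3, 1 antioxidant gene fell and 1 rose, as without 12-month library 2 or 3, without 12-month library 1 3 fell, and without 2-month library 2 8 fell.

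Genes of pain-sensing neurons were among the largest increases. Of 15 tested nociceptor genes 12 rose, all as DEGs, (median 3.21), where 13.9% of all genes tested rose, and all 15 were higher at 12 months without overlap, against 26.3% of all genes tested. Some members passed the low-count filter only through the 12-month libraries, such as Prdm12 with 3, 4 and 6 counts against 255, 207 and 276. The counts and the median of this list are therefore partly fixed by the filter. Without 2-month library 3, 11 rose, and the list median lay between 3.05 and 3.58 when any 1 library was left out. Scn10a, a sodium channel of nociceptors (GRCm39 chr9:119435988-119548388, minus strand), stood at 0.375, 0.241 and 0.229 CPM in the 2-month libraries and at 23.6, 21.3 and 24.9 CPM in the 12-month libraries (log2 fold change 6.34, SE 0.207, adjusted p = 0.000317). Calca, which encodes calcitonin and the neuropeptide CGRP (GRCm39 chr7:114230712-114235592, minus strand), stood at 1.06, 1.24 and 0.817 CPM against 41.1, 48.1 and 49.4 CPM (log2 fold change 5.47, SE 0.18, adjusted p = 0.000317). The 3 libraries of each age were close to one another, and the lowest 12-month library was far above the highest 2-month library in both genes. Scn11a, the neighbouring sodium channel gene (GRCm39 chr9:119582825-119654522, minus strand), stood at 0.219, 0.447 and 0.262 CPM against 16.8, 16.6 and 16.01 CPM (log2 fold change 5.73, SE 0.251, adjusted p = 0.000978). Prdm12, a transcription factor that specifies nociceptors (log2 fold change 5.56), the capsaicin receptor gene Trpv1 (log2 fold change 2.94) and Avil, advillin of sensory neurons (log2 fold change 2.56), rose. Mrgprd, a receptor of nociceptors of the skin, stood at 0.0625, 0.103 and 0.0327 CPM, at most 3 counts per library, against 1.76, 1.98 and 1.88 CPM. Drgx, a homeobox gene of sensory ganglia (log2 fold change 5.25), and Gpr149 (log2 fold change 4.06), which are in no list, were among the largest rises too.

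Neuronal genes rose in 13 of 19 tested members, 11 as DEGs, (median 1.14), and 18 of the 19 were higher without overlap, against 13.9% and 26.3% of all genes tested. With all 9 libraries of the series in 1 fit 3 rose, at nearly the same median of 1.13, and with the muscle covariate all 19 did. Without 2-month library 3 the number that rose was 5, and it was 8, 7 and 6 without 12-month library 1, 2 and 3, with a list median between 1.09 and 1.39. Snap25, a protein of synaptic vesicle fusion, stood at 432, 629.8 and 531 CPM at 2 months and at 1157, 1167 and 1156 CPM at 12 months (log2 fold change 1.13, SE 0.17, adjusted p = 0.00591). Prph, peripherin of peripheral neurons, stood at 33.4, 2.92 and 18.6 CPM against 135, 146 and 151 CPM (log2 fold change 2.97, SE 0.761, adjusted p = 0.0282). Its adjusted p rose to as much as 0.103 by edgeR with 1 library left out, so the call was lost. Nefh, a neurofilament subunit, overlapped, with 339, 15.4 and 181 CPM against 299.5, 301 and 306 CPM (log2 fold change 0.76, SE 0.886, adjusted p = 0.533). In the last 2 genes 2-month library 2 was far below library 1 while the 12-month libraries were even. Tubb3, neuronal tubulin (log2 fold change 1.76), and Uchl1 (log2 fold change 1.98) rose.

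Peripheral myelin genes rose in 6 of 15 tested members and fell in 1 (median 0.66), with 5 rising without 2-month library 3, and central glia genes rose in 7 of 9 (median 1.13), with 3 rising without 2-month library 3 and 4 without 12-month library 2. With all 9 libraries in 1 fit 0 genes of either list rose by edgeR, with 5 and 1 at an unadjusted p of at most 0.05 and medians of 0.65 and 1.12, and with the muscle covariate 11 peripheral myelin genes rose. Mag, a myelin protein of both Schwann cells and oligodendrocytes, stood at 45.7, 34.6 and 37.9 CPM against 73.4, 127 and 129 CPM (log2 fold change 1.48, SE 0.239, adjusted p = 0.0072). Prx, periaxin (log2 fold change 1.16), rose, while Fa2h, a hydroxylase that myelinating and epithelial cells share, fell (log2 fold change -2.61), a call kept only when 2-month library 2 was the one left out. Gfap, the filament of astrocytes and some glia of peripheral nerve, stood at 77.9, 46.0 and 64.6 CPM against 169, 165 and 156 CPM (log2 fold change 1.38, SE 0.193, adjusted p = 0.00485). The glutamate transporter gene Slc1a2 (log2 fold change 1.10) and the oligodendrocyte gene Ermn (log2 fold change 1.53) rose.

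Genes of the choroid plexus, the tissue of the brain ventricles that secretes cerebrospinal fluid, rose in 10 of 15 tested members, 9 as DEGs, and fell in 1 (median 1.99), and 8 rose without 2-month library 3. Slc4a5, a bicarbonate transporter of its epithelium, stood at 0.312, 0.275 and 0.196 CPM at 2 months and at 16.4, 12.7 and 11.1 CPM at 12 months (log2 fold change 5.66, SE 0.267, adjusted p = 0.00125). Enpp2, autotaxin (GRCm39 chr15:54701324-54816288, minus strand), stood at 78.7, 36.8 and 57.2 CPM against 915, 657 and 637 CPM (log2 fold change 3.68, SE 0.328, adjusted p = 0.00216). In both genes 12-month library 1 was the highest of all. Folr1, which carries folate into the fluid (log2 fold change 5.13), the potassium channel subunit gene Kcne2 (log2 fold change 4.11), Kl, klotho (log2 fold change 3.48), and Otx2, a transcription factor of the plexus (log2 fold change 1.99), rose, while Aqp1, a water channel also abundant in vessels, fell (log2 fold change -0.63), a call lost without 2-month library 3 or any 1 of the 12-month libraries. The shares of counts of the choroid plexus list were 0.0329%, 0.0203% and 0.026% at 2 months and 0.138%, 0.0973% and 0.0961% at 12 months. Nociceptor genes held 0.00601%, 0.00905% and 0.00724% at 2 months and 0.036%, 0.0336% and 0.0351% at 12 months, and all neuronal genes 0.275%, 0.259% and 0.268% against 0.657%, 0.640% and 0.645%. How much ganglion, nerve and brain tissue was taken with each cochlea, and its part in these rises, was not tested.

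Some other large increases lay outside the lists. Hoxb5, a homeobox gene of the hindbrain and spinal axis, stood at 0.562, 0.0688 and 0.327 CPM against 15.9, 10.8 and 9.32 CPM (log2 fold change 5.20, SE 0.554, adjusted p = 0.0028). Trappc3l stood at 0.0937, 0.0344 and 0.0327 CPM, at most 3 counts per library, against 1.39, 3.66 and 4.41 CPM, and the long noncoding RNA Gm13425 at 0.0937, 0.0688 and 0.0327 CPM, also at most 3 counts, against 2.33, 2.27 and 3.11 CPM. The noncoding RNA 2900040C04Rik (log2 fold change 4.94) and the processed pseudogene Gm12240 (log2 fold change 4.73) rose as well, and reads of a pseudogene may belong to its parent.

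**Figure D4:**
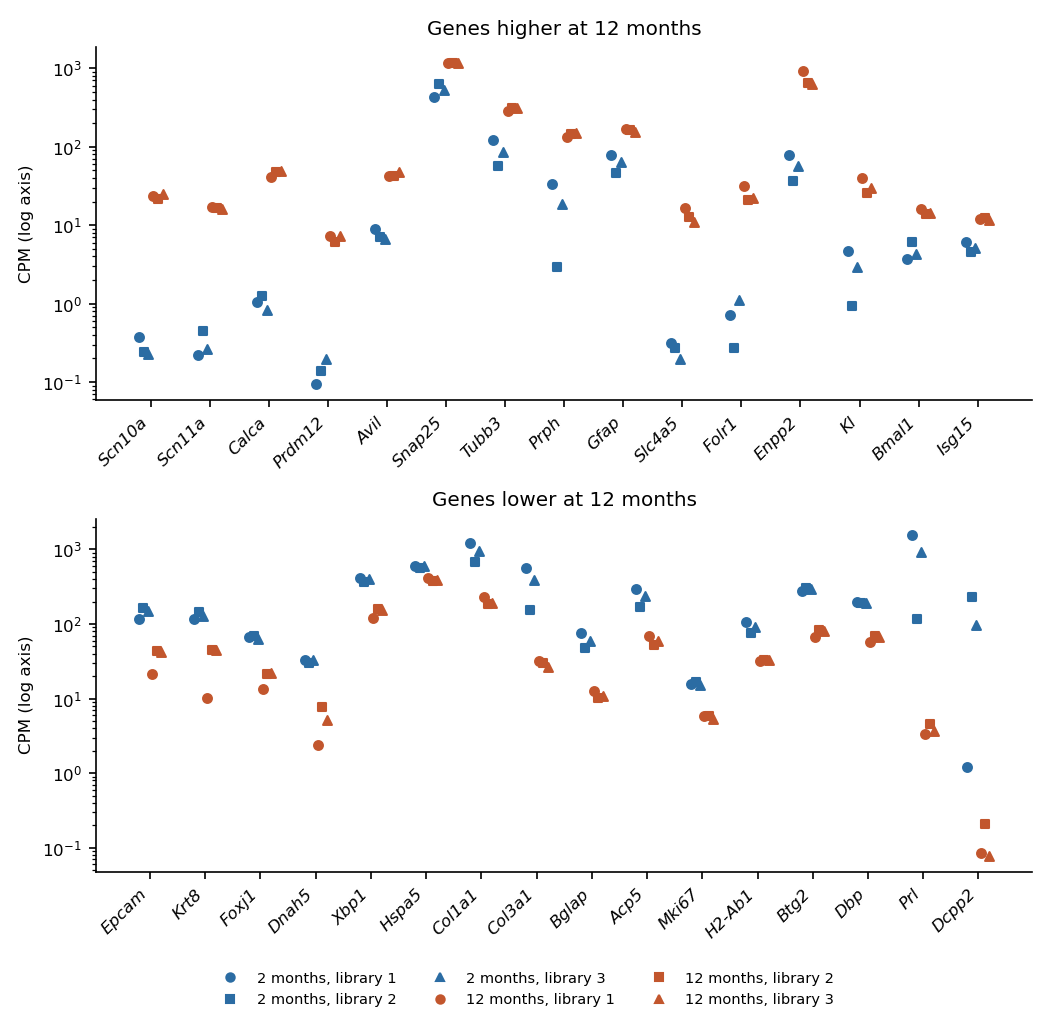
Levels of 15 genes that rose (upper panel) and 16 that fell (lower panel) in each library (vertical axis, CPM on a log axis; blue, 2 months; orange, 12 months; the symbols are libraries 1 to 3). Scn10a, Scn11a, Prdm12, Slc4a5 and Folr1 rise from about or below 1 CPM at 2 months, Xbp1, Btg2, Dbp and Mki67 are even within each age, and Prl and Dcpp2 spread widely among the 2-month libraries.

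The markers of the cochlear sensory and fluid-regulating cells changed little beside these groups. Of 22 tested hair cell genes 1 rose (median 0.28), where 13.9% of all genes tested rose, and 3 had an unadjusted p of at most 0.05 in that direction and 2 in the other. Of 7 tested spiral ligament genes 0 passed by edgeR at an adjusted or an unadjusted p of 0.05, or by DESeq2 at an adjusted one (median 0.02). Without 2-month library 1, 4 hair cell genes rose, and without 2-month library 2, 3 rose and 3 fell, as did 2 spiral ligament genes. With the mean log2 level of the muscle genes as a covariate, which was lowest in 2-month library 1, 6 hair cell genes rose (median 0.79) and 4 spiral ligament genes rose (median 0.85). With the gland covariate 0 genes of either list passed by edgeR at an adjusted or an unadjusted p of 0.05, with medians of -0.01 and -0.52. Lhfpl5, part of the mechanotransduction channel of hair cells, rose, from 2.69, 1.20 and 2.19 CPM to 4.89, 6.05 and 4.57 CPM (log2 fold change 1.35, SE 0.313, adjusted p = 0.021), a call that was lost without 2-month library 3 or any 1 of the 12-month libraries. Myo7a, whose levels are given above, did not pass (log2 fold change 0.54, SE 0.288, adjusted p = 0.188), nor did Otof, otoferlin of the hair cell synapse, at 12.9, 2.51 and 7.45 CPM against 10.1, 7.38 and 8.31 CPM (log2 fold change 0.17, SE 0.524, adjusted p = 0.813). Ocm, oncomodulin of outer hair cells, stood at 20.02, 4.09 and 12.5 CPM against 4.55, 5.22 and 4.23 CPM and overlapped between groups (log2 fold change -1.39, SE 0.523, adjusted p = 0.0862). Coch did not pass either (log2 fold change 0.07, SE 0.422, adjusted p = 0.909), and its 2-month libraries spread over a wider range than the 12-month ones. These intervals are wide, and a p above the threshold does not show equal levels.

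Among 14 tested supporting cell genes 4 fell (28.6%) and 2 rose (14.3%), where 18.6% and 13.9% of all genes tested did (median -0.09). The numbers were 2 and 1 without 2-month library 3 and 7 and 4 without 2-month library 2. Sox2, the transcription factor of supporting cells and of glia, stood at 29.5, 33.9 and 33.2 CPM at 2 months and at 16.2, 21.9 and 18.9 CPM at 12 months (log2 fold change -0.76, SE 0.132, adjusted p = 0.00859). Fst, follistatin, fell (log2 fold change -1.99). Slc1a3, a glutamate transporter of supporting cells and glia, stood at 60.9, 180.5 and 116 CPM against 308, 275 and 283 CPM (log2 fold change 1.28, SE 0.366, adjusted p = 0.0395), and the endothelin receptor gene Ednrb rose (log2 fold change 1.00). Leaving out 1 library gave Slc1a3 an adjusted p of up to 0.128 by edgeR, so its call was lost. Both genes that rose are also made by glia, whose lists rose in the same libraries, and the part of glia in these values was not tested.

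Of 6 tectorial membrane genes 2 rose, Tecta (log2 fold change 1.19) and Otog (log2 fold change 0.78), and both calls were lost without 2-month library 3 or any 1 of the 12-month libraries, with both genes still at an unadjusted p of at most 0.05. In the stria vascularis 2 of 18 tested genes rose (11.1%) and 1 fell (5.56%), below the 13.9% and 18.6% of all genes tested (median 0.04). These counts were the same without 2-month library 3, and 6 fell without 2-month library 2. Kcnj10, the potassium channel of strial intermediate cells and of glia, stood at 50.1, 34.9 and 40.7 CPM against 85.0, 75.2 and 73.9 CPM (log2 fold change 0.90, SE 0.147, adjusted p = 0.00739). Atp13a5, a pump that marks strial cells and pericytes of the nervous system, stood at 4.31, 4.51 and 3.46 CPM against 9.92, 12.1 and 10.9 CPM (log2 fold change 1.42, SE 0.16, adjusted p = 0.00303). Met, the hepatocyte growth factor receptor gene, fell, from 34.3, 30.2 and 32.0 CPM to 9.38, 12.8 and 13.2 CPM (log2 fold change -1.45, SE 0.151, adjusted p = 0.00267). Slc26a4, the anion exchanger pendrin whose loss causes deafness, overlapped between groups, with 27.1, 7.70 and 19.6 CPM against 24.4, 22.5 and 22.96 CPM (log2 fold change 0.36, SE 0.408, adjusted p = 0.516).

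**Figure D5:**
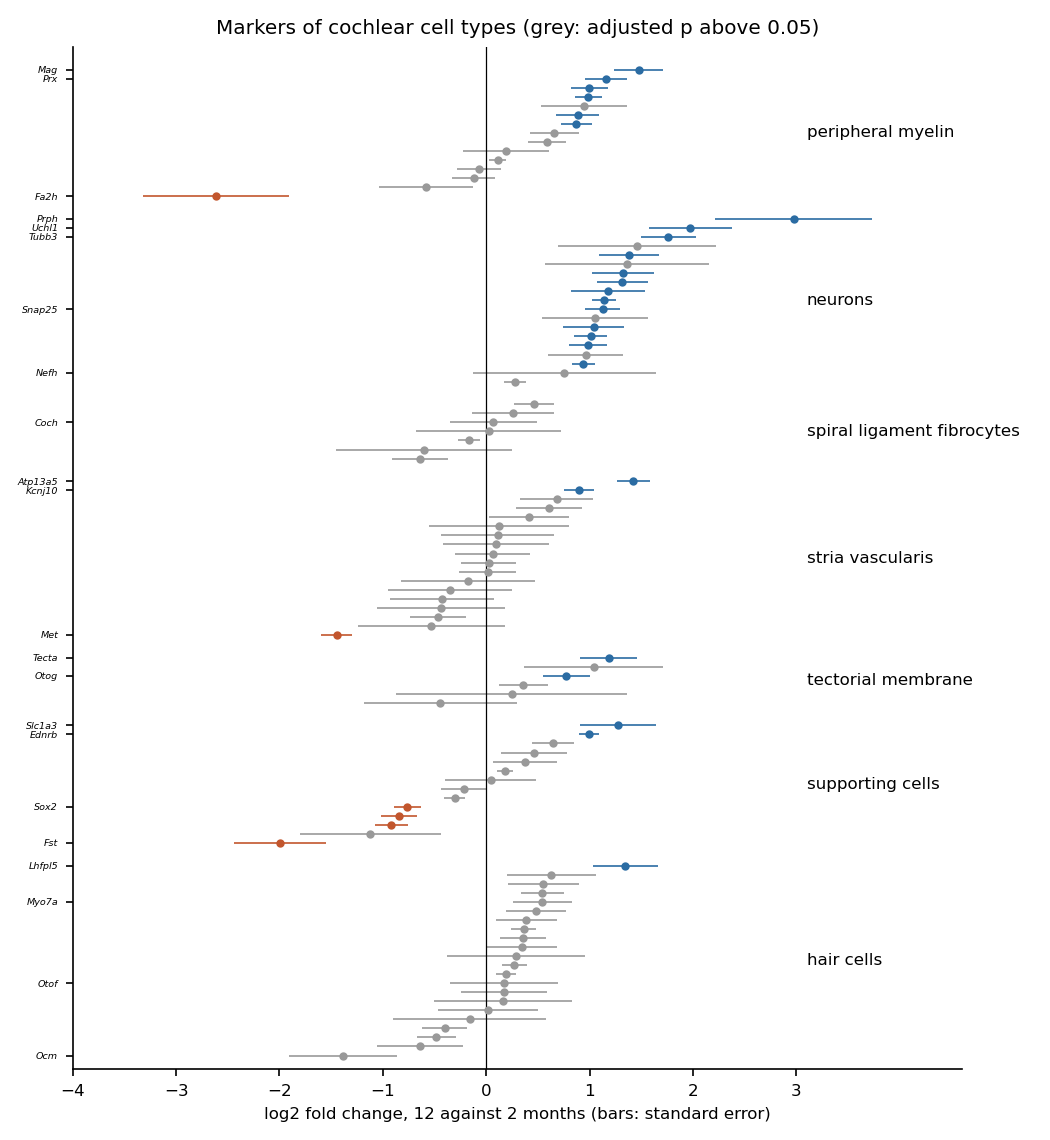
Log2 fold change, 12 months over 2 months, of the tested markers of cochlear cell types (horizontal axis; bars, standard error; blue, rose; orange, fell; grey, adjusted p above 0.05; each point is 1 gene, with symbols for genes named in the text). Neuron and myelin genes lie mostly to the right of 0, while most hair cell, stria vascularis and spiral ligament genes are grey.

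Skeletal muscle genes, abundant in all libraries, gave 1 that rose of 26 tested (median 0.74), with 10 rising without 2-month library 2 and 3 by DESeq2, and the call was lost without 2-month library 3 or any 1 of the 12-month libraries. Acta1, skeletal actin, stood at 1421, 9311 and 4779 CPM against 10872, 8960.2 and 8857 CPM (log2 fold change 0.89, SE 0.63, adjusted p = 0.31), and Tnnt3, a fast troponin, followed it (log2 fold change 0.88, adjusted p = 0.322). Mb, myoglobin, was the one that rose (log2 fold change 0.70). In Acta1 and Tnnt3 2-month library 2 was as high as the 12-month libraries.

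Of 15 tested genes taken from the text of the study, 6 fell and 1 rose (median -0.08), and 3 fell without 2-month library 3. The study drew most of them from another data set on mice of these ages or from earlier work and singled some out by their values in these libraries, and for the latter the direction here is not independent evidence. In that other data set the paper reported an increase with age for Fabp5, Itgb2, Uhrf1 and its other RNA-binding proteins, except Acan. For its own libraries it reported that Isg15 and Myom1 increased and Acan decreased. In the comparison made here Isg15 was the one gene of the 15 that rose. Fabp5, a fatty acid carrier of epithelium and fat, stood at 558, 80.2 and 348 CPM against 47.1, 62.8 and 63.5 CPM (log2 fold change -2.51, SE 0.647, adjusted p = 0.0288), with 2-month library 2 close to the 12-month level. The call of Fabp5 was lost with 1 library left out (largest adjusted p 0.104 by edgeR). Esrp1, a splicing regulator of epithelia that hearing requires, stood at 56.1, 48.3 and 52.6 CPM against 4.01, 16.7 and 14.3 CPM (log2 fold change -2.16, SE 0.483, adjusted p = 0.0187). Itgb2, the leukocyte integrin beta chain, stood at 9.78, 9.36 and 9.90 CPM against 5.12, 5.67 and 4.99 CPM (log2 fold change -0.88, SE 0.123, adjusted p = 0.00484). Uap1 (log2 fold change -0.47), and Uhrf1 and Acan, whose values are given above, fell too. Myom1, a structural protein of the muscle sarcomere, stood at 100.3, 486 and 271 CPM against 484, 448 and 431 CPM and did not pass (log2 fold change 0.67, SE 0.508, adjusted p = 0.341). Its groups overlapped, and it was lowest in 2-month library 1, as the muscle list was. Lgals9 (log2 fold change -0.53, adjusted p = 0.0640), Plek (log2 fold change 0.37, adjusted p = 0.0718) and Caprin1 (log2 fold change 0.20, adjusted p = 0.223) did not pass, nor did Slc26a4 and 3 further genes, at log2 fold changes from -0.08 to 0.10.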

How the data were processed

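Cochlear poly(A) RNA of 2-month (Ctrl) and 12-month (Age12) mice was compared, with 3 libraries each. The authors aligned reads to GRCm39 with HISAT2, counted uniquely mapped reads per gene, deposited these counts and, in a second table, FPKM values, and tested with DESeq2. Whether counting used strand was not given in the sources used here, so reads of overlapping genes may be misassigned. The count table's 32066 genes lost those on chromosomes X and Y, then genes failing the low-count filter of edgeR, leaving 18377 of 31041. Counts were scaled by the trimmed mean of M values and tested with the quasi-likelihood F-test of edgeR 4.0.16 (R 4.3.3) without covariates, with Benjamini-Hochberg adjustment. Alternatives were other scalings and filters, DESeq2 1.42.0, limma 3.58.1 on log2 FPKM, a replicate block, gland or muscle covariates, all 9 libraries, and left-out libraries. Code was tested on simulated data. A score used as covariate was the mean log2 CPM of its list. Genes were named by rule: the 15 largest falls and rises among DEGs of at least 1 mean CPM without overlap, up to 3 most abundant and 3 most changed members per list among those called, and genes from the study's text. Some genes, 1 of the 15 largest rises among them, were passed over and are not reported here, and some well-known members that did not pass were added. The comparison, members and lists were chosen with earlier results of these data known. Coordinates and promoter windows came from GENCODE M39 on GRCm39, read with pysam 0.24.0.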

Additional observations from a re-analysis of the deposited data

Results flagged for a closer look

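Genes of the Y chromosome, left out of every comparison, had counts far above the 2-month level in every 12-month library. Ddx3y had 14, 4 and 3 counts at 2 months and at least 976 at 12 months. Eif2s3y had 15, 4 and 2 counts at 2 months and 1511, 1400 and 1457 at 12 months. Kdm5d had 4, 1 and 0 counts against 419, 381 and 349, and Uty had 4, 0 and 0 counts against 108, 151 and 166. Xist had between 7267 and 8765 counts at 2 months, 16 in 12-month library 1 and 1595 and 1686 in the other two. Which sex each library came from was not given in the sources used here, and sex and age cannot be told apart.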

How the results depend on the processing

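Against 2813 DEGs (876 up, 1937 down, 31.1% up), counts changed by over 1.5 times in these settings. They were 1634 (266 up, 16.3%) with all 9 libraries in 1 fit, 1076 (512 up, 564 down, 47.6% up) with limma on log2(FPKM + 1), 1243 (622 down, 49.96% up) for genes with a mean FPKM of at least 1, and 5973 (2549 up, 3424 down) without the fold cutoff. With the gland score as a covariate 2 genes were DEGs by edgeR, 2 up and 0 down, with 4030 at an unadjusted p of at most 0.05, and without library 3 of both groups 0 were (0 up, 0 down; 4252 unadjusted). Leaving out 1 library gave 1571 to 4099 DEGs, 446 to 1676 up and 1125 to 2423 down. With log2(FPKM + 0.1) 46.4% of 2504 DEGs were up. With all 9 libraries 15 simple epithelium (26 in the report), 4 adipocyte (11), 2 macrophage (8), 5 smooth muscle (9), 4 complement (7), 5 osteoclast (8), 2 airway (6), 2 keratinised epithelium (13), 2 erythroid (11), 0 ribosomal (10, with 9 unadjusted) and 0 cholesterol synthesis genes (7, with 3 unadjusted) fell by edgeR, while 11 nociceptor, 10 choroid plexus, 19 ciliated and 17 ER genes were called. DESeq2 gave 3229 DEGs, which included 2784 of the 2813. The gland score was 6.20, 7.70 and 7.38 at 2 months and 0.898, 4.62 and 4.42 at 12 months, lower in every 12-month library, so the covariate moves with age.

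The glandular kallikrein median was 0.97 without the low-count filter, 0.024 with log2(FPKM + 1) and 0.13 with log2(FPKM + 0.1). With the gland covariate the log2 fold change turned its sign, with no call, for Dcpp1 (2.80), Dcpp2 (3.66), Smgc (2.59), Dmbt1 (1.77), Ltf (1.03), Lyz1 (1.67), Bpifb1 (2.50), Muc5b (1.58), Muc5ac (0.37), Reg3g (0.0015), Krt15 (0.13), Psca (3.40), 2300002M23Rik (3.85), Lyz2 (1.16), Myo7a (-0.026), Otof (-0.67), Coch (-0.52) and Slc26a4 (-0.12). Leaving out 1 library gave -0.24 to 0.78 for Otof and -0.29 to 0.51 for Coch. The cause was not tested. Of the 227 named genes 201 had been called, and 199 lost the call with the gland covariate. Leaving out 2-month library 3 cost 62 of the 201 their call, and leaving out 12-month library 1, 2 or 3 cost 43, 64 or 63. Leaving out 2-month library 1 or 2 cost 7 or 3. Not every such gene is marked where it is named.

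Replicate numbers did not pair the libraries (correlations of deviations -0.0080, -0.0146 and 0.0084 for numbers 1, 2 and 3). The fit with a replicate block gave 2116 DEGs (666 up, 1450 down). With 3 libraries per age, one of which may not be independent of the other two at 2 months, every error and p-value may be too small.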

Other observations

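Gene families outside the lists above were looked at after their values were seen, so they are described without a test of the family. Their counts were not taken without 2-month library 3. Voltage-gated sodium channel subunit genes rose in 6 of 10 tested members and none fell, where 13.9% of all genes tested rose. Scn1a, a channel of neurons of the brain and of sensory ganglia, stood at 10.1, 10.7 and 9.90 CPM at 2 months and at 27.0, 23.6 and 24.3 CPM at 12 months (log2 fold change 1.28, SE 0.0976, adjusted p = 0.00181 by edgeR). Scn9a, a channel of peripheral sensory neurons, stood at 3.94, 0.310 and 2.16 CPM against 13.7, 13.7 and 14.4 CPM (log2 fold change 2.70, SE 0.696, adjusted p = 0.0287 by edgeR). Its call was lost with 1 library left out (largest adjusted p 0.106 by edgeR). The 12-month libraries were even in both genes, and 2-month library 2 was the lowest in Scn9a. Of 17 tested Hox genes, which set position along the body axis, 4 rose and none fell. Hoxb4 stood at 1.28, 0.825 and 0.752 CPM against 3.44, 3.45 and 2.93 CPM (log2 fold change 1.77, SE 0.265, adjusted p = 0.00579 by edgeR), next to Hoxb5 on chromosome 11, which is described above.

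Mitochondrial transfer RNA genes rose in 10 of 16 tested members (median log2 fold change 1.12), where 13.9% of all genes tested rose. The messenger RNA genes of the same genome had a median of -0.19. mt-Tm, the methionine transfer RNA gene, stood at 1.31, 1.51 and 1.73 CPM against 3.67, 3.28 and 3.53 CPM (log2 fold change 1.20, SE 0.192, adjusted p = 0.00698 by edgeR), and mt-Tl1, a leucine one, stood at 8.09, 9.25 and 8.17 CPM against 17.9, 14.2 and 13.8 CPM (log2 fold change 0.85, SE 0.143, adjusted p = 0.00799 by edgeR). These genes are short and abut messenger RNA genes, so reads may be shared, and the part of read assignment in the rise was not tested.

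Detoxifying enzymes of the Cyp2 family fell in 8 of 15 tested members and rose in 3, where 18.6% of all genes tested fell and 13.9% rose. Cyp2a5, an oxidase of olfactory and airway mucosa, stood at 152, 435 and 279 CPM against 1.56, 14.96 and 14.6 CPM (log2 fold change -4.80, SE 0.9, adjusted p = 0.0109 by edgeR), with 12-month library 1 the lowest, as in the gland lists. Serpina3n, an acute-phase protease inhibitor, rose, from 7.72, 4.71 and 5.85 CPM to 18.7, 17.0 and 17.9 CPM (log2 fold change 1.55, SE 0.191, adjusted p = 0.00362 by edgeR), while 2 of the 7 tested Serpina3 genes fell.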
